A study of Arabidopsis thaliana with 6 samples.

Results

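The 4 genes described here encode transcription factors that promote chloroplast development in Arabidopsis thaliana: GLK1 (AT2G20570) and GLK2 (AT5G44190) of the GOLDEN2-LIKE family, and the zinc-finger GATA factors GNC (AT5G56860) and GNL (AT4G26150, also called CGA1). They were taken by gene identifier from a table of 32833 genes, by a rule that names the genes and sets no threshold on their values, although earlier results of these data were known when they were chosen. RNA was counted in 6 libraries of whole seedlings, 3 of wild-type Col-0 and 3 of gi-2, a mutant allele of the clock gene GIGANTEA (GI) and the single mutant line measured. All seedlings were 7 d old and came from 0.5x MS plates kept in short days (8 h light, 16 h dark) at 80 µmol m-2 s-1 and 22 °C. Each library came from a pool of 40 to 60 seedlings frozen at ZT 0, when the lights came on, so it averages shoots and roots at a single time of day. The comparison asks whether transcript levels of these regulators differ with the gi-2 allele at dawn.

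GLK1 and GLK2 belong to the GARP family of DNA-binding proteins and act largely redundantly within each cell. They activate nuclear genes for chlorophyll synthesis and for the light-harvesting antenna proteins, and plants that lack both are pale. GNC and GNL are B-class GATA factors that promote greening and raise the number of chloroplasts in a cell. Their transcripts respond to light, nitrate and cytokinin, and they lie downstream of gibberellin signalling and of the phytochrome-interacting factors (PIFs). Signals from damaged plastids lower GLK1 expression, and several regulators act on GLK proteins rather than on their transcripts.

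The 4 genes lie on 3 chromosomes in the TAIR10 build, and no other annotated gene overlaps any of them. GLK1 occupies chromosome 2 from 8855302 to 8857758 on the plus strand, and RefSeq lists 3 transcript models with 5 to 7 exons. GLK2 occupies chromosome 5 from 17798262 to 17800926 on the plus strand, with 2 models of 4 and 5 exons. GNC lies on the minus strand of chromosome 5 from 22989216 to 22991530, and GNL on the plus strand of chromosome 4 from 13253084 to 13255106, each with 1 model of 3 exons. The counts cover whole genes, so the GLK1 and GLK2 models are not separated. The longest exact run shared within a pair was 24 bases for GLK1 and GLK2 and 21 bases for GNC and GNL.

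The 300 bases before each annotated start are shown because the size of the genotype difference varied among the 4 genes and because GI acts in the clock, whose morning and evening factors bind short defined elements. They were read from RefSeq TAIR10.1, are written 5′ to 3′ on the gene's own strand, and end at the base before the start. Capitals mark matches to the CCA1 binding site AAAAATCT on either strand. The windows are chr2:8855002-8855301 (plus) for GLK1, chr5:17797962-17798261 (plus) for GLK2, chr5:22991531-22991830 (minus) for GNC and chr4:13252784-13253083 (plus) for GNL.
GLK1: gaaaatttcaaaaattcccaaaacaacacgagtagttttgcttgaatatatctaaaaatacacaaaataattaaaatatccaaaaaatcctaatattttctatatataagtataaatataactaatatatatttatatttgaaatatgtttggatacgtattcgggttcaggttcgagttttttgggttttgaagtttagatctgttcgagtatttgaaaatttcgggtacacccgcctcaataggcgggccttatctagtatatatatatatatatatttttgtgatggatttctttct
GLK2: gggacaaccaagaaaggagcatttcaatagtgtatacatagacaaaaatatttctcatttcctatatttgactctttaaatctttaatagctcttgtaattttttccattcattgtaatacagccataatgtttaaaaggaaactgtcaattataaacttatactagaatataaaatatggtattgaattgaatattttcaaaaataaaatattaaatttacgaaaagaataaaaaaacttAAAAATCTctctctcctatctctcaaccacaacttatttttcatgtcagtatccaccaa
GNC: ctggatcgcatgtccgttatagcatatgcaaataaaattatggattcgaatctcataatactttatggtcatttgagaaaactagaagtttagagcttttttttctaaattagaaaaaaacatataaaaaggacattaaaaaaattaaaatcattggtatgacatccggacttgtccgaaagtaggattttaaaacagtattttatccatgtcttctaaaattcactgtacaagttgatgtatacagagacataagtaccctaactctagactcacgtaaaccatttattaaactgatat
GNL: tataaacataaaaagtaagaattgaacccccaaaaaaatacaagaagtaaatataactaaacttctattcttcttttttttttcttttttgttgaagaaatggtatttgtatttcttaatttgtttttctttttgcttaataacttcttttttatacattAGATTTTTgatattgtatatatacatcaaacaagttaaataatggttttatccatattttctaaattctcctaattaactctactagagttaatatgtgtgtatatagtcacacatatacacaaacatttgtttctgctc

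All 4 windows were rich in A and T, with a GC content of 26.7% in GLK1, 25.3% in GLK2, 29.3% in GNC and 22.3% in GNL. The CCA1 site stood in the GLK2 window at -59 to -52 from the start, on the gene strand. In the GNL window it stood on the opposite strand, read as AGATTTTT, at -140 to -133. That element was present in 7.63% of the 32522 nuclear windows of this length. The GLK1 and GNC windows held none. No member window held the G-box CACGTG (6.48% of all windows), the evening element AAAATATCT (2.64%), the motif CCAATC found near GLK-bound genes (12.3%) or the GATA element TGATAAG (4.91%). Both strands were searched for each, and these letters describe the windows only.

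Library totals were 18739317 to 23617717 counts. GI itself, the gene altered in gi-2, had 8.30, 8.79 and 6.96 CPM (counts relative to library size, TMM-scaled) in gi-2 replicates 1, 2 and 3 and 3.77, 2.90 and 2.68 CPM in the Col-0 replicates, so its transcript was present in both and higher in gi-2. A transcript count does not read the allele and is no check of the genotype labels. Col-0 replicate 1 stood apart from the other Col-0 libraries on the second principal component, which held 15.1% of the variance. The seed transcripts CRU3, CRA1 and OLEO1 stood out in gi-2 replicate 2, and results are therefore given below also without these 2 libraries. Rarer seed storage transcripts, such as SESA1, were highest in gi-2 replicate 1, which stays in those results. Of 19699 genes tested by edgeR's quasi-likelihood test, 32.6% had a Benjamini-Hochberg adjusted p under 0.05, 16.3% higher and 16.2% lower in gi-2.

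GNL was lower in gi-2 by 1.06 on the log2 scale, GLK2 and GNC were lower by smaller amounts, and GLK1 did not pass the test. In all, 3 of the 4 genes passed as lower and 0 as higher, against the 16.2% of tested genes called lower. The gi-2 libraries lay wholly below the Col-0 libraries in the same 3 genes, an arrangement found in 22.4% of tested genes. The median log2 fold change of the 4 was -0.30, beside 0.0018 for all genes. In whole seedlings, fewer cells of a type and less RNA per cell cannot be told apart.

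GNL, the GATA factor also known as CGA1 for its cytokinin response, had 5.35, 5.69 and 5.50 CPM in gi-2 replicates 1, 2 and 3. The Col-0 replicates had 12.96, 12.03 and 9.50 CPM, each well above every gi-2 library. The group means were 5.52 ± 0.171 CPM in gi-2, against 11.5 ± 1.79 CPM in the wild type (SD, n = 3 each). Counting noise alone gave gi-2 replicate 1 a 95% interval of 4.43 to 6.41 CPM, wider than the spread of the gi-2 libraries. The log2 fold change was -1.06 (SE 0.17, 95% interval -1.42 to -0.69), which is 0.480 times the Col-0 level, with an adjusted p of 0.00025 from edgeR's quasi-likelihood test. Only 6.2% of tested genes had a larger change in either direction. These values rest on 110 to 136 counts per gi-2 library and 188 to 245 per Col-0 library. With gi-2 replicate 2 and Col-0 replicate 1 both left out, the log2 fold change was -0.99, with an adjusted p of 0.000316.

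GNC, the close relative with overlapping functions in greening, had 36.1, 35.3 and 39.5 CPM in the gi-2 replicates. The Col-0 replicates had 50.9, 47.5 and 41.3 CPM. The groups did not overlap, but the lowest Col-0 library (41.3 CPM) was close to the highest gi-2 library (39.5 CPM). Means were 36.97 ± 2.25 CPM in gi-2, against 46.54 ± 4.85 CPM in the wild type (SD, n = 3 each), a difference of -20.6%. The log2 fold change was -0.33 (SE 0.096, 95% interval -0.54 to -0.13), with an adjusted p of 0.0161 from edgeR. The call depended on single libraries: the adjusted p was 0.0572 without gi-2 replicate 1, 0.0675 without gi-2 replicate 2 and 0.0534 without Col-0 replicate 2. With gi-2 replicate 2 and Col-0 replicate 1 both left out, the log2 fold change was -0.23 and the adjusted p 0.0847.

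GLK2 was the most abundant of the 4 transcripts. Its level was 153.1, 167.1 and 168.5 CPM in the gi-2 replicates and 181.4, 200.9 and 205.3 CPM in the Col-0 replicates, so all gi-2 libraries were below all Col-0 libraries. Means were 162.9 ± 8.53 and 195.9 ± 12.7 CPM (SD, n = 3 each), a difference of -16.9%. The log2 fold change was -0.27 (SE 0.077, 95% interval -0.43 to -0.10), with an adjusted p of 0.0157 from edgeR. Of all tested genes, 52.8% had a larger change in either direction. The adjusted p was 0.0730 without gi-2 replicate 1, 0.0574 without Col-0 replicate 2 and 0.0507 without Col-0 replicate 3, and 0.0012 with gi-2 replicate 2 and Col-0 replicate 1 both left out.

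GLK1, which shares its targets largely with GLK2, had 70.75, 82.46 and 82.76 CPM in the gi-2 replicates and 75, 87.14 and 86.98 CPM in the Col-0 replicates. The groups overlapped: 2 gi-2 libraries exceeded Col-0 replicate 1. Means were 78.66 ± 6.85 and 83.04 ± 6.96 CPM (SD, n = 3 each). The log2 fold change was -0.079 (SE 0.088) with an adjusted p of 0.542 from edgeR, and its 95% interval ran from -0.27 to 0.11, or from 0.830 to 1.08 times the Col-0 level. The estimate for GNL (-1.06) lies outside that interval, as does that for GNC (-0.33), whose own interval (-0.54 to -0.13) overlaps it. The GLK2 estimate lies just inside the GLK1 interval, and GLK1 was not tested against GNC or GNL.

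**Figure D1:**
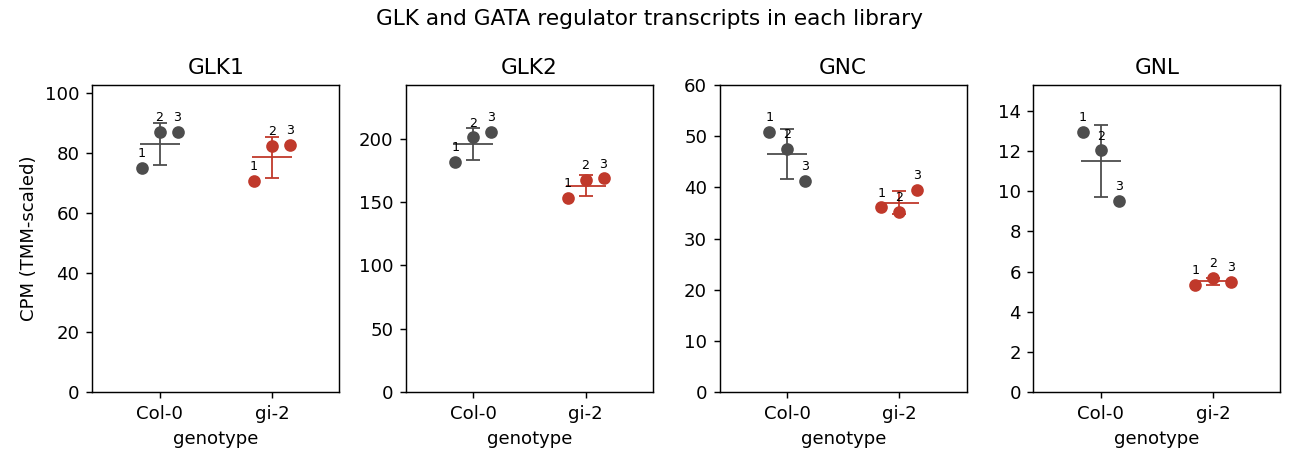
Transcript level (CPM) of GLK1, GLK2, GNC and GNL in the 3 gi-2 and 3 Col-0 libraries, with points numbered by replicate and the mean and SD of each group. GNL libraries range from 5.35 to 5.69 CPM in gi-2 and from 9.50 to 12.96 CPM in Col-0, while the GLK1 groups overlap.

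The plot of levels by library also shows that Col-0 replicate 1 was not simply low or high. It was the lowest Col-0 library for both GLK genes (75 and 181.4 CPM) and the highest for both GATA genes (50.85 and 12.96 CPM). Among the gi-2 libraries, replicate 1 was the lowest for both GLK genes.

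Per kilobase of gene model, the order of levels was GLK2, GLK1, GNC and GNL in both genotypes, and no neighbours in that order overlapped among the libraries of a genotype. In Col-0 the levels were 113.1 ± 7.34, 47.97 ± 4.02, 26 ± 2.71 and 7.045 ± 1.097 CPM per kb. In gi-2 they were 94.04 ± 4.93, 45.44 ± 3.96, 20.66 ± 1.26 and 3.38 ± 0.105 CPM per kb (SD, n = 3). GLK2 exceeded 96.2% of 19676 tested genes with a length in Col-0 and 95.4% in gi-2 on this scale. GNL exceeded 47% in Col-0 and 29.3% in gi-2, the widest move in rank of the 4.

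The balance within each pair was compared next. GLK2 made up 70.74%, 69.73% and 70.23% of the summed GLK1 and GLK2 level per kb in the Col-0 replicates, and 68.38%, 66.94% and 67.05% in the gi-2 replicates. The GLK2 minus GLK1 difference on the log2(CPM + 0.5) scale was 1.05 ± 0.052 in gi-2 and 1.24 ± 0.034 in Col-0 (SD, n = 3), a genotype difference of -0.19. GNL made up 21.85%, 21.75% and 20.15% of the GATA pair in Col-0 and 13.99%, 15.03% and 13.25% in gi-2. The GNL minus GNC difference was -2.64 ± 0.10 in gi-2, compared with -1.98 ± 0.074 in Col-0, a genotype difference of -0.66. Neither balance overlapped between genotypes, and each gave p = 0.1 in an exact two-sided permutation test, the smallest p that 3 against 3 libraries allow.

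**Figure D2:**
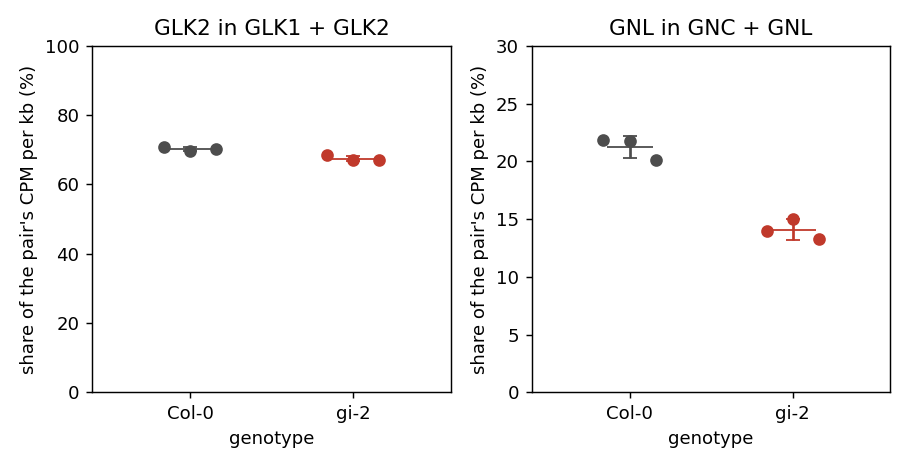
Share of GLK2 in the summed GLK1 and GLK2 level, and of GNL in the summed GNC and GNL level, in percent of CPM per kb, with 1 point per library and the group mean. GNL holds 13.25% to 15.03% in gi-2, against 20.15% to 21.85% in Col-0.

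As families, GLK1 and GLK2 together reached 139.5 ± 8.88 CPM per kb in gi-2, compared with 161.1 ± 11.3 in the wild type, which is a ratio of 0.866. GNC and GNL together reached 24.04 ± 1.24 and 33.04 ± 3.803 CPM per kb, a ratio of 0.727. For both sums every gi-2 library lay below every Col-0 library, and the exact permutation p was 0.1.

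The plot of shares describes ratios within a pair, which library scaling does not change. To find the transcripts whose pattern over the 6 libraries was most like each member, the root mean square difference of centred log2(CPM + 0.5) was taken over 17123 genes. GNL lay nearest to GLU1 (AT5G04140), which encodes ferredoxin-dependent glutamate synthase of leaf chloroplasts, at 0.0534. GLU1 had 673.7, 682.9 and 674.5 CPM in gi-2, against 1474, 1352 and 1206 CPM in Col-0. Col-0 replicate 3 was the lowest of its group as it was for GNL, a likeness that the search itself selects for. The next were CYP79B3 (0.0585), an enzyme of indole glucosinolate synthesis, and CHIL (0.0616), a chalcone isomerase-like protein. GNC lay nearest to LCR68 (0.023), GLK2 to TBL23 (0.0155) and GLK1 to AT2G04170 (0.0125), genes with changes as small as their own. Between members the distance was 0.1 for GLK1 and GLK2 and 0.338 for GNC and GNL.

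Of 8 relatives of GNC and GNL in the B-class GATA family, 7 were tested, and 3 of these were lower and 0 higher. Over all tested genes, 16.2% were lower and 16.3% higher. The median log2 fold change of the relatives was -0.54. GATA17 had 5.44, 6.15 and 5.40 CPM in gi-2, against 11.08, 8.59 and 10.76 CPM in Col-0, which gave a log2 fold change of -0.84 (adjusted p = 0.00175). Its companion GATA17L fell by 0.49 on the log2 scale (adjusted p = 0.00419) and GATA15 by 0.63 (adjusted p = 0.0408). Relatives called lower numbered 2 without gi-2 replicate 1, gi-2 replicate 2, Col-0 replicate 2 or Col-0 replicate 3. GATA16 (-0.54, adjusted p = 0.127) and HAN, a regulator of shoot and flower boundaries (-0.61, adjusted p = 0.39), did not pass. GATA19 and GATA20 had fold changes near 0, and GATA23 had 5 and 4 counts in all and was not tested. Values in this list are from 42 to 1676 counts per genotype among the tested genes.

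GNC and GNL transcripts are known to respond to cytokinin, so genes of that pathway were examined. Type-A response regulators, which cytokinin induces and which dampen its signal, had 5 of 8 tested members lower and 0 higher. The shares of all tested genes were 16.2% lower and 16.3% higher. The median log2 fold change of these regulators was -0.77. ARR8 had 20.77, 24.45 and 23.37 CPM in gi-2, against 48.41, 49.29 and 44.32 CPM in Col-0, which gave a log2 fold change of -1.05 (SE 0.096, adjusted p = 1.6e-06). ARR4 (-0.89), ARR6 (-1.03), ARR7 (-0.93) and ARR9 (-0.65) were also lower. Other genes overlap ARR6, ARR8 and ARR9, whose counts may have lost or gained reads there. ARR5, a standard cytokinin-induced gene, did not pass at -0.15 (adjusted p = 0.448), with 10.5 ± 0.410 CPM in gi-2 and 11.6 ± 0.375 in Col-0. ARR3 (0.57) and ARR16 (-0.39) had few counts and did not pass, and ARR15 and ARR17 were not tested.

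Next came the receptors and the type-B regulators that carry the signal to DNA. Of 9 tested, 2 were higher and 1 lower, close to the 16.3% and 16.2% of all tested genes. The median of the 9 was 0.016. The type-B regulators ARR1 (0.43, adjusted p = 0.000251) and ARR11 (0.51, adjusted p = 0.00261) were higher, and the receptor gene AHK4 was lower (-0.39, adjusted p = 0.0104). The AHK4 call was lost without gi-2 replicate 2, and 2 genes were called lower without Col-0 replicate 2.

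**Figure D3:**
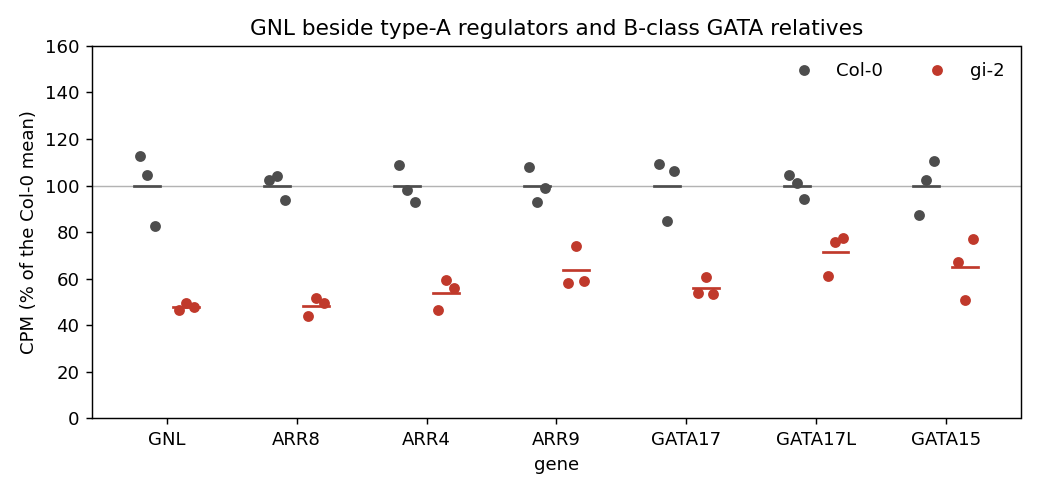
CPM in each library as a percentage of the Col-0 mean, with a line at each group mean. Shown are GNL, the type-A regulators ARR8, ARR4 and ARR9, and the GATA relatives GATA17, GATA17L and GATA15. In gi-2, GNL (log2 fold change -1.06) and ARR8 (-1.05) have the lowest means. ARR6 and ARR7, also lower, and genes that did not pass, such as ARR5, are not drawn.

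The plot of GATA and type-A genes places GNL beside lower type-A regulators. By log2 fold change, GNC (-0.33) was nearer to 0 than GNL (-1.06). Genes that act upstream of the 4 regulators, or on their proteins, were split, since 10 of 22 were higher and 4 lower. Of all tested genes, 16.3% were higher and 16.2% lower, and the median of the listed genes was 0.18. PIF4, a growth-promoting factor that represses greening genes, had 163.9, 166.6 and 185.8 CPM in gi-2, against 73.56, 87.58 and 89.05 CPM in Col-0. Its log2 fold change was 1.04 (adjusted p = 7.19e-07), and PIF3, which represses greening in the dark, was higher by 0.86 (adjusted p = 1.21e-05). PIF1 went the other way and did not pass (-0.23, adjusted p = 0.0829), although all its gi-2 libraries were below all Col-0 libraries. ORE1, a senescence factor whose protein binds GLKs and dampens them, was higher by 1.303 (adjusted p = 1.23e-05). Smaller rises were called in PIF5, BIN2, GBF1, SOC1, ARF2, ARF7 and GAI, from 0.20 to 0.77. The number higher was 6 without gi-2 replicate 1, without gi-2 replicate 3, without Col-0 replicate 2 or without Col-0 replicate 3.

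The genes lower in the same list were HYH, HY5, GUN1 and COP1. HY5 and its homologue HYH encode light-signalling factors that promote greening, and HYH had 8.35, 5.69 and 6.004 CPM in gi-2 against 27.03, 29.99 and 29.21 CPM in Col-0. The log2 fold changes were -2.11 for HYH (adjusted p = 1.1e-07) and -0.92 for HY5 (adjusted p = 0.000168). GUN1, a plastid protein of signalling from chloroplast to nucleus, had 170.8 ± 2.13 CPM in gi-2, compared with 264.6 ± 7.88 in the wild type (SD, n = 3 each), and its log2 fold change was -0.63 (adjusted p = 7.91e-06). COP1, an E3 ligase that degrades light-signalling factors in darkness, was lower by 0.41 on the log2 scale. The SOC1 and ARF2 genes, described as repressors of GNC and GNL, were among the higher ones.

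Chlorophyll synthesis genes, the best known targets of the GLK factors, were lower in 13 of 15 tested cases and higher in 2. Their median was -0.84, and 16.2% of all tested genes were lower and 16.3% higher. GUN5, a subunit of magnesium chelatase, had 1516, 1679 and 1708 CPM in gi-2, against 3999, 3666 and 3393 CPM in Col-0, which gave a log2 fold change of -1.17 (adjusted p = 2.04e-07). HEMA1, the first committed step of tetrapyrrole synthesis, and CAO, which makes chlorophyll b, fell by 1.01 and 0.94. The 2 higher genes were PORB and PORA, enzymes of the light-requiring step, whereas PORC, the other enzyme of that step, was lower (-0.93, adjusted p = 3.52e-06). PORB had 680.7, 763.9 and 811.4 CPM in gi-2, against 224.6, 220.6 and 209 CPM in Col-0 (1.79, adjusted p = 2.79e-09), and it, CAO and several other genes of the list are overlapped by other annotated genes. PORA had 2.86, 22.2 and 14.7 CPM in gi-2, against 2.38, 1.62 and 2.88 CPM in Col-0, groups that overlapped although the test passed (2.53, adjusted p = 0.00168).

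Antenna genes, which bind chlorophyll and are also GLK targets, were mixed. Against 16.2% of all tested genes lower and 16.3% higher, 11 of 20 tested antenna genes were lower and 2 higher, with a median of -0.32. Their summed level overlapped between genotypes, at 102204 to 114609 CPM in gi-2, against 99393 to 103495 CPM in Col-0, and LHCB1.3 was the most abundant. Without LHCB1.3 the sums were 52428 to 59837 CPM and 57176 to 62589 CPM, and they overlapped as well. LHCA6 had 25.4, 27.4 and 24.97 CPM in gi-2, against 61.6, 62.2 and 67.2 CPM in Col-0, which gave a log2 fold change of -1.295 (adjusted p = 6.59e-08), and LHCB2.1 and LHCB2.3 were lower by 0.74 and 0.92. LHCB1.4 was higher by 1.43 (adjusted p = 2.65e-06) and LHCB1.3 by 0.34 (adjusted p = 0.00702), and without Col-0 replicate 2 a single antenna gene was called higher. The LHCB1 genes are near-identical copies, so how reads were divided among them is uncertain. The CCAATC motif stood in 10 of 21 antenna windows and 3 of 16 chlorophyll synthesis windows, beside 12.3% of all windows.

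GNC and GNL are known to promote chloroplast division, and 7 of the 14 division genes were lower and 0 higher. Their median was -0.29, and 16.2% of all tested genes were lower and 16.3% higher. FTSZ1, which forms the plastid division ring, had 15.92, 14.40 and 13.81 CPM in gi-2, against 23.65, 25.28 and 27.49 CPM in Col-0, which gave a log2 fold change of -0.79 (adjusted p = 8.52e-05). GC1 (-0.71, adjusted p = 0.000167) and MIND1 (-0.56, adjusted p = 0.000488) followed, and FTSZ2-2, ARC5, ARC6 and MCD1 were the others. Among those that did not pass were PDV1, PDV2, ARC3 and FTSZ2-1, with log2 fold changes of 0.13, 0.087, 0.22 and 0.084.

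**Figure D4:**
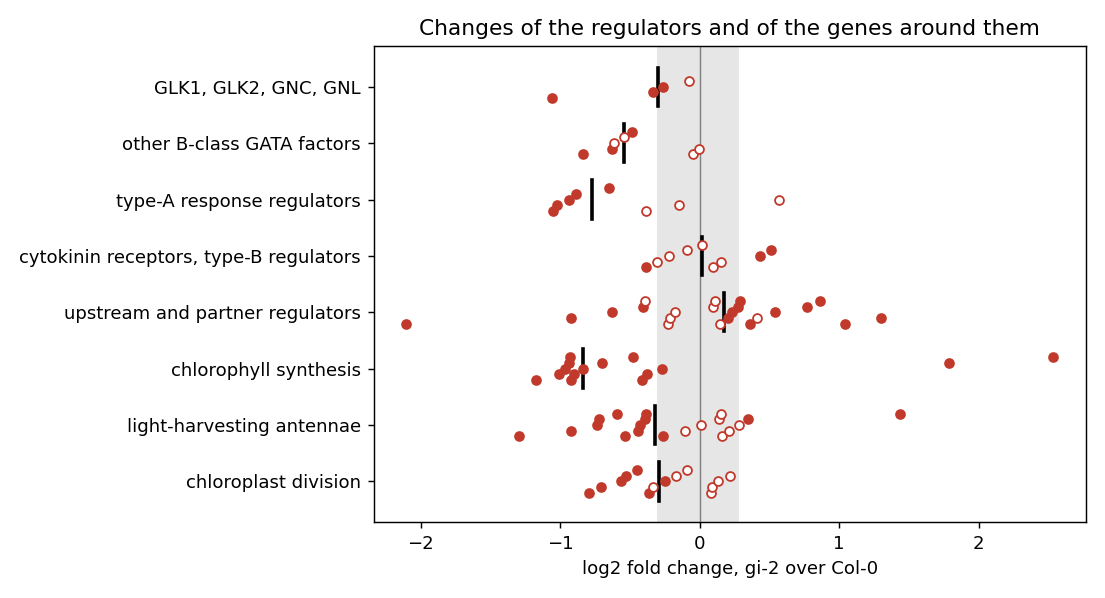
Log2 fold change (gi-2 minus Col-0) of each tested member, GATA relative, cytokinin pathway gene, upstream or partner regulator, and chlorophyll synthesis, antenna or division gene. Filled points mark adjusted p under 0.05, and a black tick marks each list's median. A grey band runs from the lower to the upper quartile of all 19699 genes tested. The medians of chlorophyll synthesis (-0.84) and type-A regulators (-0.77) lie farthest below the band, which runs from -0.296 to 0.278.

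Markers of the tissues in a seedling were examined next, beside the 16.2% of all tested genes called lower and 16.3% called higher. Of the 8 green tissue markers, such as the closely similar Rubisco small subunits and Rubisco activase, 7 were lower and 0 higher, and the median was -0.91. Their summed level was 20348 to 23426 CPM in gi-2, against 34172 to 37075 CPM in Col-0, and PSBO1 was the one that did not pass (-0.010). Of 10 root markers 5 were lower and 2 higher, with summed levels of 2325 to 2479 CPM in gi-2, against 3580 to 4013 CPM in Col-0. That sum was nearly all PYK10, a root and seedling beta-glucosidase that another annotated gene overlaps. The other 9 markers summed to 144 to 151.8 CPM in gi-2, against 151.7 to 160.9 CPM in Col-0, ranges that overlapped. By log2 fold change, CASP1 (0.56) and MYB36 (0.75) were the higher ones. Beside PYK10, the lower ones were PRP3 (-1.22), LRX1 (-1.21), ADF8 (-0.87) and COBL9 (-0.69). EXPA7 (-0.59), SHR (-0.25) and SCR (-0.12) did not pass. Root markers lower numbered 3 without gi-2 replicate 1, gi-2 replicate 3 or Col-0 replicate 2, and those higher numbered 1 without any one of these or without Col-0 replicate 1. Of 10 seed markers, 5 were tested and all 5 were higher, with summed levels of 24.85 to 397.9 CPM in gi-2, against 4.43 to 12.38 CPM in Col-0, and gi-2 replicate 2 was the highest. Seed markers higher numbered 3 without gi-2 replicate 2 or Col-0 replicate 3. The seed storage genes CRB, SESA1, SESA2, SESA3 and SESA4 were at 0 in every Col-0 library. They had only 3, 36, 29, 14 and 1 counts over the gi-2 libraries and were not tested. Each of them was highest in gi-2 replicate 1 and not in gi-2 replicate 2, with SESA1 reaching 1.451 CPM. With gi-2 replicate 2 and Col-0 replicate 1 both left out, the genes called lower numbered 13 in chlorophyll synthesis, 10 in the antenna, 7 in chloroplast division, 5 among type-A regulators and 2 among GATA relatives. The part of tissue make-up or seed material in the differences of GNL, GNC and GLK2 was not tested.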

How the data were processed

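The deposited table holds unscaled whole-number read counts made by the authors for 6 libraries of non-directional cDNA per the labels' protocols. STAR 2.5.5, HTSeq 0.6.1, DESeq2 and TAIR10 are named per the submitters' processing notes, and the sources used here do not give strand or multi-mapping settings. Without strand, reads of overlapping genes cannot be told apart, which touches 41 of the 129 listed genes: CHLI1, CHLI2, CHLD, GUN4, CHLM, CRD1, PORB, PORC, CAO, LHCA4, LHCA5, LHCB1.3, LHCB1.5, LHCB2.3, LHCB3, LHCB4.2, LHCB6, ARC6, GC1, MCD1, CRL, ARR1, ARR6, ARR8, ARR9, ARR14, PIF1, ARF7, BIN2, BZR1, GBF1, GBF3, LSD1, RCA, GAPA, CA1, EXPA7, PYK10, CASP1, OLEO1 and OLEO2. None of the 4 members is among them. GUN4 and LHCB1.5, overlapped by other genes, had at most 13 counts per genotype and were not tested.

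Counts were tested with edgeR 4.0.16 in R 4.3.3 (TMM, filterByExpr with minimum count 10 and total 15, quasi-likelihood F test on genotype, threshold 0.05 after Benjamini-Hochberg adjustment over 19699 genes). The code was checked on simulated counts. Library totals were 21675676, 23617717 and 20071825 in gi-2 and 18739317, 20225315 and 19738165 in Col-0. Every replicate pair exceeded sampling noise (chi-square divided by its degrees of freedom, 4.85 to 15.1). The labels call the replicates biological but name no separate days, and p-values therefore reflect only the variation among these pools. CPM per kb divides by the deposited gene length.

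The members and lists were chosen with earlier results of these data known, so counts over them are descriptions. Named genes were the members, up to 3 genes per list and direction with the smallest adjusted p, and the 3 nearest genes to each member. Other genes in the text were named after their values were seen. Of 32524 nuclear genes, 32508 had identical start and end in RefSeq TAIR10.1. Alternatives were RLE scaling, library totals only, DESeq2 1.42.0, limma-voom (limma 3.58.1), other low-count filters, the replicate block and left-out libraries.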

Additional observations from a re-analysis of the deposited data

How the results depend on the processing

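Over 14 alternatives GNL stayed called lower, from -1.18 to -0.97 on the log2 scale (adjusted p 6.47e-07 to 0.00217), and GLK1 stayed uncalled, from -0.18 to -0.013 (0.11 to 0.938). GLK2 ranged from -0.33 to -0.23 when single libraries were left out, with the call lost without gi-2 replicate 1, Col-0 replicate 2 or Col-0 replicate 3. GNC ranged from -0.41 to -0.27 and lost its call without gi-2 replicate 1, gi-2 replicate 2 or Col-0 replicate 2, and at -0.23 when both gi-2 replicate 2 and Col-0 replicate 1 were left out, where GLK2 was at -0.34. The causes were not tested. Counts of listed genes ranged, with 1 library left out, over 6 to 10 higher for upstream and partner regulators, 1 to 2 higher and 3 to 5 lower for root markers, 0 to 2 lower for receptors and type-B regulators, 3 to 5 higher for seed markers and 1 to 3 higher for antenna genes. Genes called lower ranged likewise over 2 to 3 for GATA relatives, 5 to 7 for chloroplast division, 9 to 12 for the antenna and 12 to 13 for chlorophyll synthesis. Seed markers higher numbered 3 without that pair of libraries, 3 with DESeq2 and 1 with limma-voom, which also left 1 chlorophyll synthesis gene higher. Replicate numbers did not pair the samples: same-numbered libraries correlated at 0.0164, 0.021 and 0.0263, although each library correlated best with its own number, a hint from the data and not the design. With the replicate block the log2 fold changes were -0.078, -0.27, -0.33 and -1.05 for GLK1, GLK2, GNC and GNL, and no member's call changed. Both pair balances kept their direction in all 9 alternatives, the p of 0.25 under the block being the smallest that 3 pairs allow. The median log2 fold change of all genes was 0.0018 with TMM, -0.0010 with RLE scaling and 0.027 with library totals only. Depth limits the precision of GNL (110 counts in its lowest library) and of the rarer GATA relatives.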
